A study of Takifugu alboplumbeus with 24 samples.

Results

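The comparison is between the full moon of July and the full moon of June in the forebrain of male grass puffers (Takifugu alboplumbeus) caught in the wild. It uses 6 libraries out of 24, 3 from the July full moon and 3 from the June full moon. The members were chosen by their labelled sampling point, and no measured value entered that choice. Each library was made from a tissue block of hypothalamus and pituitary with the ventral part of the telencephalon, dissected at about 19:00 from fish caught at a spawning site at Minamichita in Japan in 2020 and carried alive to the laboratory. The other 18 libraries come from 6 further dates, 3 per date, at new, waxing and waning moons between May and July. The fish were untreated and wild, and nothing but the moon phase and the month is given for the groups. Whether a library stands for a single animal is not stated in the labels. Libraries are counted as fish in what follows, and the p-values measure the spread between these libraries, which may be technical. Since the full moon of each month was sampled on 1 date, a difference between months and a difference between these particular dates cannot be told apart.

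The grass puffer gathers on beaches to spawn around the spring tides, which come with the new and full moons, through a season that runs from spring into summer. Spawning of this kind needs gonadotropin-releasing hormone neurons of the forebrain and the gonadotrophs of the pituitary, which release luteinizing and follicle-stimulating hormone. Daily and seasonal timing in vertebrate brains involves the circadian clock, in which period and cryptochrome proteins hold back the CLOCK and BMAL activators while REV-ERB receptors repress the gene for BMAL, and the local control of thyroid hormone by deiodinases. A full moon in July and a full moon in June share the lunar phase and differ in their place in the season.

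Levels are FPKM, fragments scaled to transcript length and library size. Of 24935 rows, 17058 had a mean of at least 1 FPKM over all 24 fish and were tested on the log2(FPKM + 1) scale, which understates the changes of genes with low values. The read depth is unknown. The tissue carried the markers its label calls for: the pituitary transcript pomc lay between 7508.51 and 21184.61 FPKM and the neuronal transcript snap25 between 1049.14 and 1626.78 FPKM in the 6 fish. Correlations between libraries were 0.968 to 0.975 among July fish, 0.969 to 0.978 among June fish and 0.958 to 0.973 between July and June fish. The sum of FPKM over all rows was 541 ± 12.5 kFPKM in July fish and 509 ± 21.8 kFPKM in June fish (SD, n = 3 each), and the lowest July sum, 527.4 kFPKM, lay above the highest June sum, 522.6 kFPKM. The part of this sum in the counts that follow was not tested beyond a fit that holds it as a covariate. The other 18 libraries reached 519 kFPKM, so the July sums were the highest of the series. This covariate therefore overlaps with the July date, and the fit separates the sum from the date poorly.

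In July 61 genes (0.358%) were higher and 92 (0.539%) lower than in June (limma, adjusted p below 0.05 with Benjamini-Hochberg adjustment over all tested genes), together 153 of 17058, or 0.897%. In all 153 the 3 July values lay on 1 side of the 3 June values. Such a separation was found in 8.41% of all tested genes with July above and 11.4% with July below. The 153 were called on these same values, so their separation follows largely from the choice and is not a test. Increases were larger than decreases, with a median log2 change of 0.78 among the 61 and -0.45 among the 92, and a log2 change of 1 or more was reached by 16 increases and by 2 decreases. The median over all tested genes was -0.02, and 46.8% of them had a positive log2 change. With libraries rescaled to a common sum (TPM) the split was 50 higher and 188 lower, and with median-ratio scaling it was 64 higher and 62 lower. The genes nearest the threshold had adjusted p = 0.0495 inside and 0.0505 outside it (limma).

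The number of calls depended on single fish. Leaving out July fish 1, 2 or 3 gave 13, 49 or 45 calls, of which 13, 43 or 41 were among the 153. Leaving out June fish 1, 2 or 3 gave 17, 85 or 10 calls, of which 16, 68 or 9 were among the 153. When the log2 FPKM sum entered the fit as a term, 27 genes passed, 18 of them among the 153, and with only the 6 full moon libraries in the fit 23 passed, 12 of them among the 153. In each of these fits all 153 genes kept their direction. In the fits without a fish or with only the 6 libraries this was fixed beforehand. The July and June values of these genes did not overlap, so it adds no support to the calls. The genes that passed in all 6 of the fits that left out a fish were 5: sna1, ntn4, LOC101071690, LOC101072929 and ncald. Another 57 genes passed in 0 of these fits and 53 in 1. Of the 24 largest changes named below, 2 to 13 passed in each fit that left out a full moon fish. With the library sum as a covariate 5 of the 24 passed, and with only the 6 full moon libraries 6 did. Among the 57 were kcne4, phlda2, LOC101072362, LOC101074909, per1, LOC101062387, fam181b, LOC101075022 and pou3f4.

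The other months gave counts of their own. Waxing moon June against Waxing moon May gave 2181 higher (12.8%) and 1461 lower genes (8.56%), 21.4% in all, and that pair holds May fish 2, whose mean log2 level of hormone genes was 4.54. Waning moon July against Waning moon June gave 67 higher (0.393%) and 54 lower (0.317%), 0.709% in all, and New moon June against New moon May gave 3 higher (0.0176%) and 1 lower (0.00586%), 0.0234% in all. Of the 61 full moon increases, 35 had the same sign in the new moon pair, 20 in the waxing moon pair and 36 in the waning moon pair. Of the 92 decreases the counts were 39, 22 and 62. The share of all tested genes with each sign in these pairs is not given here, so these counts are description only.

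For most increases July was the highest date. July held the highest of the 8 date means in 54 of the 61 genes, June the lowest in 23, and 18 met both conditions. Among all tested genes the July full moon held the highest mean in 17.7% and the June full moon the lowest in 11.3%. The genes were picked on these dates, so the counts describe them and are not a test.

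The increase with the smallest p was that of sna1, a homologue of the snail repressors, which direct epithelial-mesenchymal transition in vertebrate embryos. It had 6.72, 8.39 and 8.67 FPKM in July fish, against 3.2, 3.67 and 3.42 FPKM in June fish. The date means of the 6 other dates lay between 2.87 and 3.56 FPKM, so the July fish stood apart from the whole series. The log2 change was 1.01 with an SE of 0.11 (limma, adjusted p = 0.000344). The gene lies outside the 12 largest changes and was picked after its values were seen. It kept its call in all 6 fits without a fish (highest adjusted p = 0.00683), with the library sum as a covariate (0.00207) and with the 6 full moon libraries only (0.047).

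The SIK2-like kinase LOC101070411, whose mammalian relatives are salt-inducible kinases that restrain cAMP-driven transcription, had 94.92, 95.31 and 77.72 FPKM in July fish, against 40.98, 30.99 and 28.62 FPKM in June fish. The lowest July fish thus stood clear of the highest June fish, and the highest of the other 18 fish had 40.85 FPKM. Its log2 change was 1.40 (SE 0.24; limma, adjusted p = 0.0143). The phosphatase gene dusp2 (LOC101079172), whose product switches off MAP kinases, had 11.78, 3.71 and 7.92 FPKM in July fish, against 0.85, 1.45 and 2.27 FPKM in June fish. Here the July fish differed widely among themselves, and the log2 change was 1.73 (SE 0.32; limma, adjusted p = 0.0191). The receptor substrate gene irs2 (LOC101069496, picked after its values were seen), which relays insulin signals, had 30.37, 26.83 and 23.29 FPKM in July fish, against 12.16, 13.89 and 11.68 FPKM in June fish. Its log2 change was 1.03 (SE 0.18; limma, adjusted p = 0.0143).

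Nocturnin (LOC101074895), in mammals a rhythmic phosphatase related to RNA deadenylases, had 22.37, 10.66 and 16.78 FPKM in July fish, against 5.16, 4.9 and 6.16 FPKM in June fish. The 6 other dates had means between 4.08 and 6.16 FPKM, so that July alone had a high mean. The highest of the other 18 fish had 10.59 FPKM, close to the 10.66 FPKM of July fish 2. The log2 change was 1.41 (SE 0.26; limma, adjusted p = 0.0191). The pleckstrin homology gene phlda2 had 41.53, 34.76 and 34.77 FPKM in July fish, against 12.04, 12.93 and 11.31 FPKM in June fish, and no fish of the other dates exceeded 18.58 FPKM. Its log2 change was 1.53 (SE 0.36; limma, adjusted p = 0.0487). The retinoic acid carrier CRABP2-like, LOC101072362, had 9.37, 11.35 and 13.71 FPKM in July fish, against 2.98, 2.92 and 3.57 FPKM in June fish, a log2 change of 1.57 (SE 0.36; limma, adjusted p = 0.0459). The other dates reached 11.17 FPKM in single fish and so overlapped July for this gene.

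Other large increases were less even. The amphiphysin-like gene LOC115248599 had 23.51, 4.29 and 18.26 FPKM in July fish, against 0.94, 0.94 and 0.98 FPKM in June fish (log2 change 2.80, SE 0.46; limma, adjusted p = 0.00893). A second gene of the same product name, LOC115248608, went the other way, with 22.6, 30.23 and 23.16 FPKM in July fish, against 36.5, 40.24 and 48.25 FPKM in June fish (-0.70, SE 0.14; limma, adjusted p = 0.0301). Amphiphysins bend membranes during the recovery of synaptic vesicles. Reads shared between such copies would make their separate levels uncertain. The MOB2-like gene LOC101067025, named for a partner of NDR kinases, had 3.62, 2.3 and 2.64 FPKM in July fish and was listed at 0 in June fish 1 and 3 and at 1.29 FPKM in June fish 2 (log2 change 1.53, SE 0.36; limma, adjusted p = 0.0471). For this gene June was the lowest date, and the July mean of 2.85 FPKM lay within the 2.29 to 3.71 FPKM of the other date means. The potassium channel accessory subunit kcne4 had 18.21, 13.42 and 12.48 FPKM in July fish, against 7.46, 5.71 and 4.42 FPKM in June fish (log2 change 1.2, SE 0.26; limma, adjusted p = 0.0406).

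**Figure D1:**
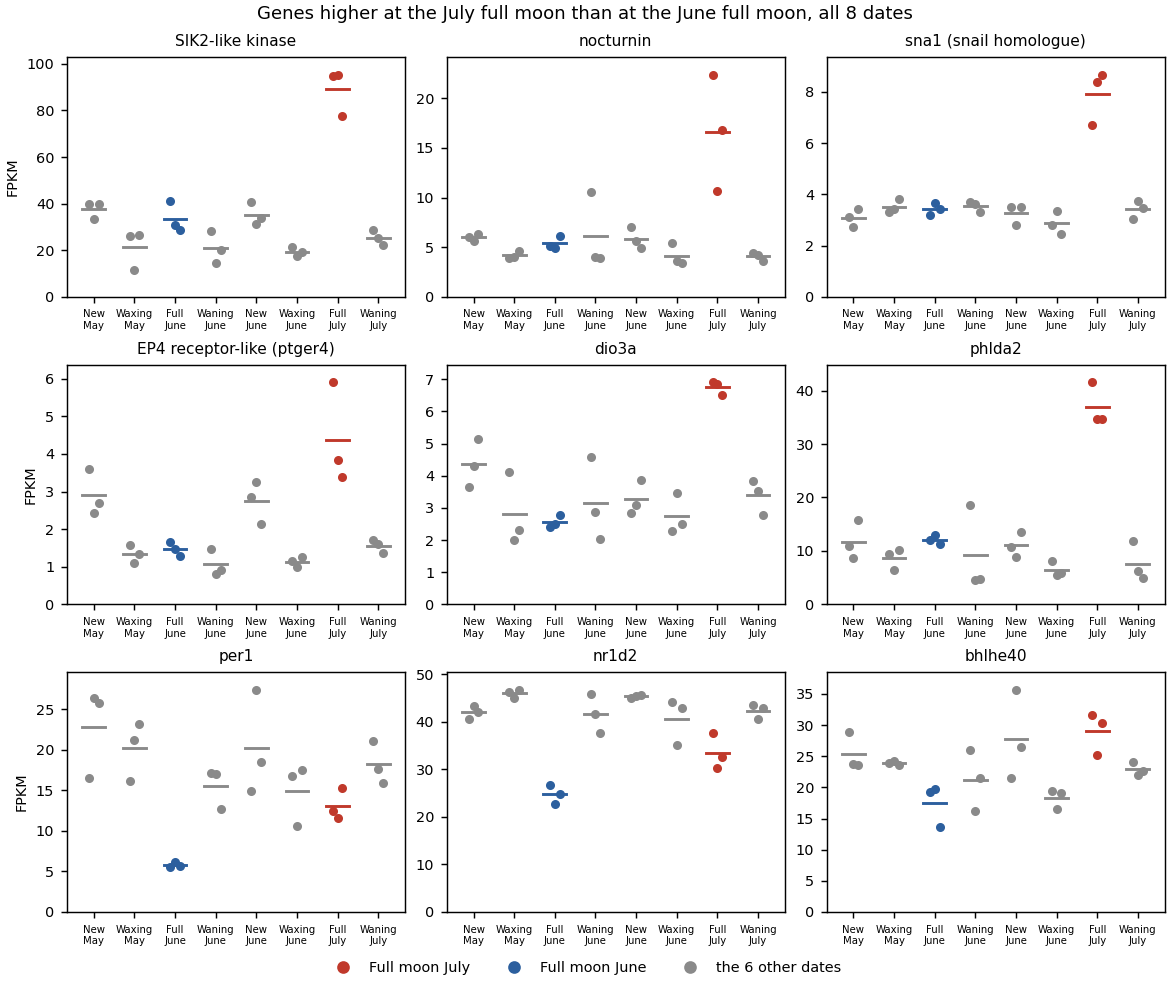
FPKM of 9 genes that passed the test as higher in July, in every fish (points) with the mean of the 3 fish of a date (bar), at the 8 sampling dates in order of time. In the upper 6 panels the July mean stands above those of the other dates (sna1 6.72 to 8.67 FPKM), whereas for per1 and nr1d2 the June full moon is the lowest date and July lies next to it.

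Of 38 tested genes of the circadian clock, 4 rose and 0 fell in July, or 10.5% beside 0.897% over all genes, and the list's median log2 change was 0.11. The 4 were per1, nr1d1, nr1d2 and bhlhe40, all of them repressors within the clock. For per1 and nr1d2, June was the lowest of the 8 dates and July the next. The period gene per1 had 12.44, 11.52 and 15.28 FPKM in July fish, against 5.6, 6.12 and 5.7 FPKM in June fish (log2 change 1.04, SE 0.22; limma, adjusted p = 0.0301). The means of the other dates ran from 14.9 to 22.8 FPKM, so the June fish lay below every other fish of the series and July was the second lowest date.

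The REV-ERB gene nr1d2 (LOC101077948) had 37.63, 30.17 and 32.54 FPKM in July fish, against 26.71, 22.77 and 24.79 FPKM in June fish (log2 change 0.42, SE 0.09; limma, adjusted p = 0.0362). The July fish lay below the date means of 40.6 to 45.9 FPKM at the other dates. Its relative nr1d1 (LOC101076758) had 50.97, 45.96 and 49.95 FPKM in July fish, against 28.85, 34.21 and 35.64 FPKM in June fish (log2 change 0.56, SE 0.13; limma, adjusted p = 0.0459). For nr1d1 the means of both full moons lay within the 24.6 to 63.1 FPKM of the other date means. In limma nr1d1 passed in the opposite direction in the waxing moon pair (-0.63, adjusted p = 0.00287) and in the waning moon pair (-0.7, adjusted p = 0.0115). The E-box repressor bhlhe40 had 31.59, 25.24 and 30.39 FPKM in July fish, against 19.21, 19.7 and 13.6 FPKM in June fish (log2 change 0.71, SE 0.17; limma, adjusted p = 0.0487). For bhlhe40 July was the highest and June the lowest date. The related repressor bhlhe41 had a log2 change of 0.07 (SE 0.15; limma, adjusted p = 0.865). It lay between 3.49 and 5.33 FPKM in the 6 full moon fish and at 8.42 FPKM or more in the other 18. The 3 genes named per2 had log2 changes of 0.25 for per2, 0.49 for LOC101061913 and 0.49 for LOC115246449, of which none passed (adjusted p = 0.122, 0.16 and 0.135; limma). All fish were dissected at about the same hour, but the exact time of each is not given, and its part in the clock genes was not tested. With the library sum as a covariate all 4 calls were lost (limma, lowest adjusted p = 0.0653). None held in more than 1 of the 6 fits without a fish. In the covariate fit the log2 changes were 1.06 for per1, 0.68 for nr1d1, 0.39 for nr1d2 and 0.49 for bhlhe40. That covariate overlaps with the July date, as said above, so a lost call does not mean that the sum accounts for the change.

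Genes of hormone metabolism and lipid signals gave isolated calls. Among 22 tested genes of the thyroid and photoperiod axis, 1 rose and 0 fell (4.55%, beside 0.897% over all genes), and the median was 0.03. That gene was dio3a, the type 3 deiodinase that inactivates thyroid hormones, with 6.9, 6.85 and 6.51 FPKM in July fish, against 2.42, 2.5 and 2.78 FPKM in June fish. July was the highest and June the lowest of the 8 dates, and the fish of each date lay close together (log2 change 1.12, SE 0.20; limma, adjusted p = 0.0172). Of the genes that did not pass, the receptor thra (LOC101071184) had a log2 change of -0.33 (adjusted p = 0.222), the transporter slco1c1 (LOC101072594) one of -0.35 (adjusted p = 0.236) and the receptor for thyrotropin-releasing hormone (LOC101061148) one of -0.51 (adjusted p = 0.265), none of which passed in limma.

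In the prostaglandin pathway 1 of 23 tested genes rose and 1 fell (8.70%, beside 0.897% over all genes), with a median of 0.04. The receptor gene ptger4 (LOC101070091), coding for an EP4-like receptor that answers prostaglandin E2 by raising cAMP, had 5.9, 3.84 and 3.38 FPKM in July fish, against 1.67, 1.47 and 1.29 FPKM in June fish. The new moon dates came closest to July for this receptor, with means up to 2.92 FPKM, and the log2 change was 1.09 (SE 0.17; limma, adjusted p = 0.00893). The synthase gene ptges2 had 9.87, 10.53 and 9.61 FPKM in July fish, against 13.85, 13.05 and 12.01 FPKM in June fish (log2 change -0.34, SE 0.07; limma, adjusted p = 0.0301), with July the lowest and June the highest date. The carrier slco2a1 (0.34, adjusted p = 0.215) and the EP3 receptor ptger3 (0.39, adjusted p = 0.218) did not pass in limma.

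Among the decreases July held the lowest of the 8 date means in 76 of the 92 genes and June the highest in 40. Over all tested genes the July full moon was lowest in 23.8% and the June full moon highest in 11.3%. These genes too were picked on these dates, so the counts describe them and are not a test. The transcription factor SOX-4 (LOC101072929), known from developing neurons, had 8.1, 10.23 and 9.13 FPKM in July fish, against 17.05, 13.97 and 17.6 FPKM in June fish. The means of the other dates lay between 11.9 and 15.7 FPKM, with July below all of them and June above all of them. Its log2 change of -0.76 (SE 0.11; limma, adjusted p = 0.00763) held in all 6 fits without a fish and when the library sum was a covariate (adjusted p = 0.0488), but not with the 6 full moon libraries only (adjusted p = 0.117).

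The largest decreases were those of a pair of lipid genes. The ANGPTL4-like gene LOC101061143, named for an inhibitor of lipoprotein lipase, had 2.46, 0.97 and 1.59 FPKM in July fish, against 6.43, 5.01 and 13.13 FPKM in June fish (log2 change -1.72, SE 0.39; limma, adjusted p = 0.0439). The gene g0s2, whose mammalian product inhibits adipose triglyceride lipase, had 2.43, 0.67 and 1.43 FPKM in July fish, against 7.09, 6.51 and 6.85 FPKM in June fish (log2 change -1.70, SE 0.33; limma, adjusted p = 0.025). In the new, waxing and waning moon pairs the log2 changes of g0s2 were -1.13, -0.73 and -0.94, and those of LOC101061143 were -0.83, -0.88 and -1.37. None of these passed, and neither gene differed between the full moon pair and the other pairs by the test of that difference (limma, adjusted p = 0.249 for g0s2 and 0.385 for LOC101061143).

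Synapsin-1 (LOC101073030), a coat protein of synaptic vesicles, had 21.78, 24.13 and 21.17 FPKM in July fish, against 38.19, 32.12 and 44.19 FPKM in June fish (log2 change -0.74, SE 0.15; limma, adjusted p = 0.0301). Every one of the other 18 fish had at least 24.76 FPKM. The calcium channel gamma-4-like subunit LOC101075022, of a family that also steers AMPA receptors, had 27.23, 34.46 and 33.72 FPKM in July fish, against 56.3, 52.58 and 48.18 FPKM in June fish (log2 change -0.71, SE 0.16; limma, adjusted p = 0.0459). The kinase inhibitor gene camk2n2, which holds back CaMKII, had 118.05, 124.29 and 114.73 FPKM in July fish, against 194.38, 180.27 and 189.93 FPKM in June fish (log2 change -0.66, SE 0.12; limma, adjusted p = 0.0188). July lay below all the other dates for each of these 3 genes.

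The genes that follow had smaller decreases and were picked after their values were seen. The calcium sensor ncald had 192.04, 187.37 and 180.62 FPKM in July fish, against 246.91, 266.78 and 248.42 FPKM in June fish (log2 change -0.44, SE 0.07; limma, adjusted p = 0.00893). For ncald June was the high date and July lay within the 179 to 219 FPKM of the other date means. The vesicle-fusing ATPase LOC101068366 had 147.05, 148.46 and 160.4 FPKM in July fish, against 210.11, 199.04 and 213.92 FPKM in June fish (log2 change -0.45, SE 0.09; limma, adjusted p = 0.0221). The active zone gene rims3 fell by 0.52 on the log2 scale (adjusted p = 0.0439), LOC101072167, named septin-5-like, by 0.46 (adjusted p = 0.0246) and the GABA-degrading enzyme abat by 0.41 (adjusted p = 0.0471), all by limma.

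Of 61 tested glutamate and GABA receptor genes, 0 rose and 1 fell (1.64%, beside 0.897% over all genes). A negative log2 change was found in 46 and the median was -0.17, where 46.8% of all tested genes had a positive change. The gene that fell was gabra2, a subunit of the GABA-A receptor, with 28.94, 28.43 and 28.01 FPKM in July fish, against 38.7, 37.36 and 35.96 FPKM in June fish (log2 change -0.38, SE 0.06; limma, adjusted p = 0.00893). July was the lowest and June the highest date for it. The AMPA receptor gene gria4 (-0.44, adjusted p = 0.0696), the NMDA receptor gene LOC101074532 (-0.26, adjusted p = 0.0877) and the GABA receptor beta gene LOC101061510 (-0.45, adjusted p = 0.0982) did not pass in limma. After adding the library sum as a covariate the list's median was -0.03.

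Of 16 tested neuronal markers, 0 rose and 1 fell (synapsin-1; 6.25%, beside 0.897% over all genes), and 5 had a positive log2 change (46.8% of all tested genes did). Their median was -0.24, and -0.07 when the library sum was a covariate. Their summed level was 2109 to 2258 FPKM in July fish and 2513 to 2997 FPKM in June fish, without overlap. A large part of that sum was the single gene snap25. Next in order of p were snap25 with 1049.14, 1133.07 and 1105.25 FPKM in July fish, against 1626.78, 1333.79 and 1480.63 FPKM in June fish (log2 change -0.43, adjusted p = 0.0533), elavl3 (-0.38, adjusted p = 0.0954) and the stathmin gene LOC101077630 (-0.27, adjusted p = 0.151), none of which passed in limma. In a tissue block, fewer cells of a type and less RNA per cell cannot be told apart. The part of the neuronal share in the decreases was not tested. Myelin and oligodendrocyte markers, 8 tested with 0 calls, had 3 positive and 5 negative log2 changes. Their summed level was 1164 to 1551 FPKM in July fish and 1585 to 1738 FPKM in June fish, likewise without overlap. Much of this sum was the single gene mbp (LOC101062328), with means of 718 FPKM in July fish and 949 FPKM in June fish (limma, adjusted p = 0.251). Astroglial markers, 14 tested with 0 calls, had a median log2 change of 0.22 and summed to 1848 to 2208 FPKM in July fish and 1589 to 2123 FPKM in June fish.

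**Figure D2:**
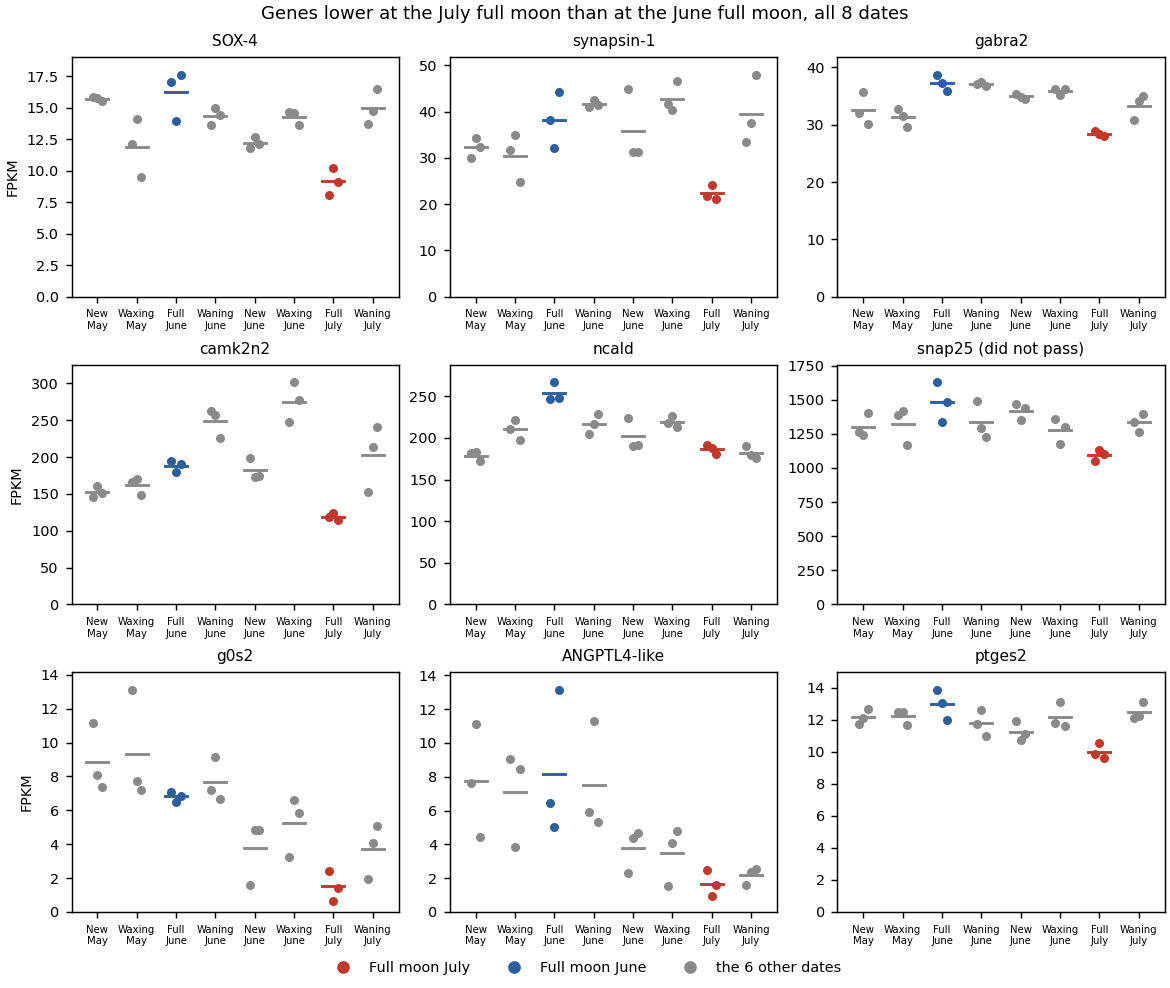
FPKM of 9 genes in every fish (points) with the mean of the 3 fish of a date (bar), at the 8 sampling dates in order of time. All but snap25, which did not pass, were called lower in July. The July fish lie below the other dates for synapsin-1 (21.17 to 24.13 FPKM), gabra2 and camk2n2, whereas g0s2 and the ANGPTL4-like gene are low at the later dates as a whole.

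The remaining large decreases were those of regulators and of genes known by name only. The neural transcription factor pou3f4 had 3.13, 3.27 and 3.43 FPKM in July fish, against 4.82, 5.6 and 6.71 FPKM in June fish (log2 change -0.64, SE 0.14; limma, adjusted p = 0.0317). The adhesion gene ninj1 had 20.54, 16.72 and 17.96 FPKM in July fish, against 25.91, 24.34 and 37.65 FPKM in June fish (log2 change -0.62, SE 0.15; limma, adjusted p = 0.0471). The gene fam181b had 2.74, 2.61 and 2.95 FPKM in July fish, against 4.33, 6.11 and 5.89 FPKM in June fish (log2 change -0.76, SE 0.18; limma, adjusted p = 0.0495). The July fish were the lower in each case, with no overlap. The PAN1-like gene LOC101062387 averaged 3.93 ± 0.654 FPKM in July fish and 7.79 ± 0.281 FPKM in June fish (SD, n = 3 each; -0.84, limma, adjusted p = 0.0439). The trichohyalin-like gene LOC105418169 averaged 3.43 ± 0.757 FPKM in July fish and 6.45 ± 0.555 FPKM in June fish (SD, n = 3 each; -0.76, limma, adjusted p = 0.0191).

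**Figure D3:**
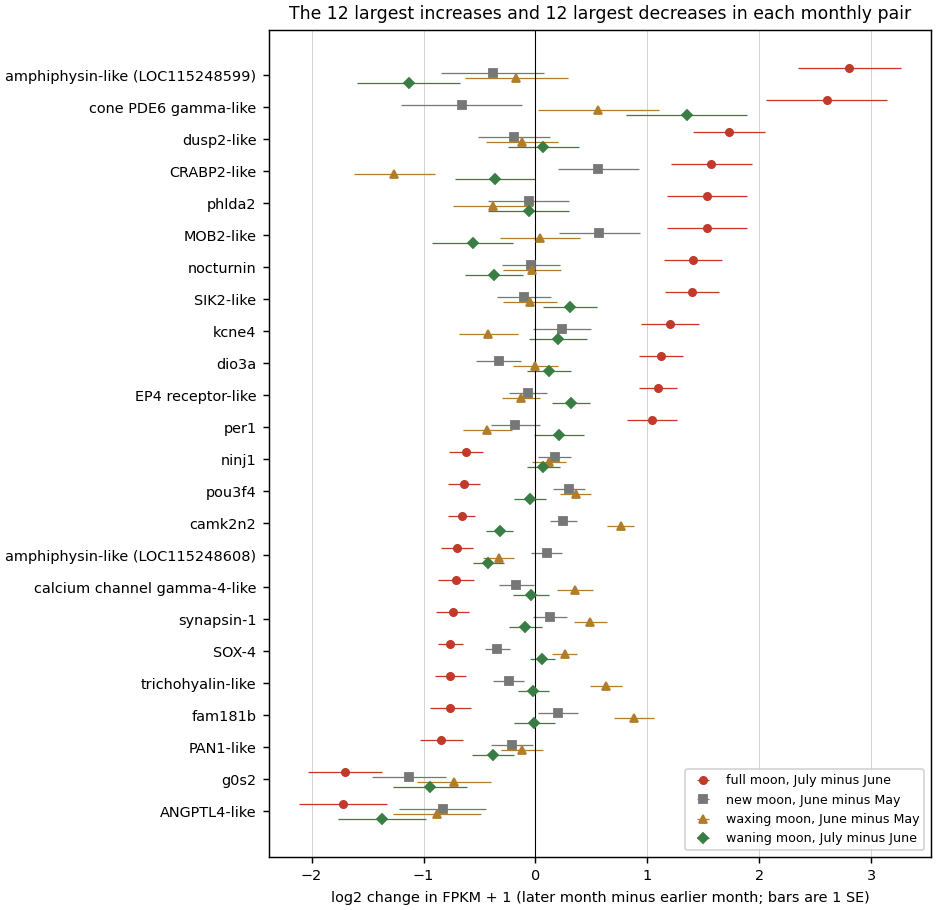
Log2 changes of the 12 largest increases and the 12 largest decreases in the full moon pair and in the new, waxing and waning moon pairs, later month minus earlier month, with bars of 1 SE from limma. The increases lie higher in the full moon pair (phlda2 1.53). The genes were chosen by the size of their full moon change, so this follows from the choice and is not a test. The changes of g0s2 and the ANGPTL4-like gene lie below 0 in all 4 pairs.

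Whether a change belonged to the full moon pair was tested by its difference from the mean of the other 3 pairs. That difference was positive for 207 (1.21%) and negative for 411 genes (2.41%; limma, adjusted p below 0.05; 618 of 17058, 3.62%), and 50 of the 61 increases and 69 of the 92 decreases were among them in their own direction. The full moon change enters the difference, so these counts are not independent of the calls. The changes of the other pairs enter it too, so a difference need not belong to the full moon pair alone. In the waxing moon pair 10 of the 61 increases passed in the opposite direction and 1 in the same. Of the 92 decreases, 31 passed there in the opposite direction and 6 in the same. With TPM scaling the counts were 197 and 2069, at a median over all genes of -0.18 in place of -0.05, and with median-ratio scaling they were 237 and 211. Holding the library sum as a covariate left 1 gene. Leaving out a full moon fish gave between 126 genes (June fish 3) and 597 genes (June fish 2), of which 120 and 445 were among the 618. Without July fish 1, 2 and 3 the counts were 205, 170 and 423, with 189, 163 and 351 among the 618. Without June fish 1 the count was 343, with 289 among the 618. Without May fish 2 of the waxing moon the count was 765.

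The 5 largest positive differences were those of the amphiphysin-like gene LOC115248599 (3.36), the histidine triad gene LOC101069999 (2.40), the CRABP2-like gene LOC101072362 (1.93), the maternal B9.15-like gene LOC101071953 (1.92) and dusp2 (1.81, LOC101079172). Of these, LOC101069999 overlapped in the full moon pair, with 5.73, 3.15 and 4.95 FPKM in July fish, against 0, 6.02 and 2.62 FPKM in June fish. LOC101071953 had 26.63, 17.69 and 21.56 FPKM in July fish, against 7.05, 6.79 and 5.17 FPKM in June fish (log2 change 1.64, SE 0.40), and just missed the threshold within the pair (limma, adjusted p = 0.0544). For this gene all July fish lay above the 14.08 FPKM of the highest fish of the other dates.

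The 5 largest negative differences were those of the matrix metalloproteinase-20-like gene LOC115246534 (-3.77), the claudin-7-A-like gene LOC115248182 (-1.77), the LIM homeobox gene LOC101079432 (-1.53), the collagen alpha-5(IV)-like gene LOC101075270 (-1.45) and fam181b (-1.12). LOC115246534 was listed at 0, 0 and 0.1 FPKM in July fish, against 6.57, 16.83 and 10.11 FPKM in June fish, and the highest of the other 18 fish had 5.87 FPKM. Matrix metalloproteinase-20 is known as an enamel protease of mammalian teeth, and the large SE of 0.84 left its change of -3.47 outside the threshold in the pair itself (limma, adjusted p = 0.0534). LOC115248182, of a family of tight junction proteins, had 0.27, 0.75 and 0.53 FPKM in July fish, against 2.76, 1.71 and 3.48 FPKM in June fish (log2 change -1.25, SE 0.30; limma, adjusted p = 0.0511). LOC115246534 and LOC115248182 were higher in every June fish than in any July fish, whereas LOC101075270 overlapped. LOC101079432 had log2 changes of 0.90 and 1.16 in the new and waxing moon pairs, -0.19 in the waning moon pair and -0.90 in the full moon pair.

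Of the pituitary hormone genes, which sit beside the reproductive axis, 0 of 28 tested genes of the pituitary list passed, and 0 of 22 in the reproductive list. Over all genes 0.897% passed, so lists of these sizes would seldom hold a call, and absence of change is not shown. The follicle-stimulating hormone subunit fshb (LOC101071898) had 66.85, 110.37 and 48.35 FPKM in July fish, against 1080.69, 1922.97 and 868.15 FPKM in June fish. The groups lay far apart, but the fitted log2 change of -4.08 had an SE of 1.46, which pools the spread of all dates, and did not pass (limma, adjusted p = 0.166). That spread includes May fish 2 of the waxing moon, whose mean log2 level of hormone genes was 4.54. The next lowest library had 8.64. The same fish enters the SE of every hormone gene, so those that did not pass are not shown to be unchanged. In the 3 other pairs fshb had log2 changes of -4.07, -2.84 and -1.70, so that its level was lower in the later month at each moon phase, again without passing. Prolactin, prl, had 1893.41, 1619.3 and 817.87 FPKM in July fish, against 255.01, 415.93 and 216.44 FPKM in June fish (log2 change 2.25, SE 0.98; limma, adjusted p = 0.251). Again the values did not overlap. Both genes passed in 3 of 20 alternative fits (limma, lowest adjusted p = 0.0122 for LOC101071898 and 0.00128 for prl): each with either pituitary score as a covariate, LOC101071898 with the 6 full moon libraries only, and prl without May fish 2 of the waxing moon. The scores, given below, are means over hormone genes. Both include prl, and fshb enters the score that keeps the gonadotropin subunits. A fit with a score that includes the gene adjusts it partly for its own level, so its p-value does not account for pituitary content. The score without gonadotropins leaves fshb out, but it was chosen after seeing the data. The June full moon was the lowest of the 8 dates for prl and July the highest.

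The remaining hormone genes did not pass either. The shared gonadotropin subunit cga had 34718.18, 19527.14 and 15519.87 FPKM in July fish, against 12139.47, 14675.58 and 6420.59 FPKM in June fish (log2 change 1.07; limma, adjusted p = 0.653). The luteinizing hormone subunit lhb (LOC101078229) had 8090.52, 8902.26 and 7025.57 FPKM in July fish, against 8742.7, 9464.18 and 2894.59 FPKM in June fish (0.36; limma, adjusted p = 0.917). Of the 2 gonadotropin beta subunits, then, only the level of fshb was separated between the dates. Growth hormone gh1 (LOC101061166) had a log2 change of -0.82 (adjusted p = 0.713), pomc (LOC101064982) one of 0.63 (adjusted p = 0.761), somatolactin (LOC101070289) one of 1.2 (adjusted p = 0.604) and tshb (LOC101067051) one of 0.44 (adjusted p = 0.849), and none passed in limma.

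The gonadotropin-releasing hormone gene gnrh1 had 47.99, 5.2 and 35.39 FPKM in July fish, against 26.24, 32.61 and 5.32 FPKM in June fish (log2 change 0.31; limma, adjusted p = 0.893). A low fish occurred at each date. Averaged over 8 hormone genes of the pituitary, the log2 level was 10.8 ± 0.35 in July fish and 10.7 ± 0.57 in June fish (SD, n = 3 each), a difference of 0.13. Without the 3 gonadotropin subunit genes it was 10.6 ± 0.359 in July fish and 9.89 ± 0.496 in June fish, a difference of 0.74. With the first score as a covariate 101 genes were higher and 129 lower, and with the second 44 and 46, of which 83 were among the 153. The summed level of 15 pituitary markers was 40530 to 63212 FPKM in July fish and 19632 to 43595 FPKM in June fish. The part of the pituitary share in these levels was not tested.

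**Figure D4:**
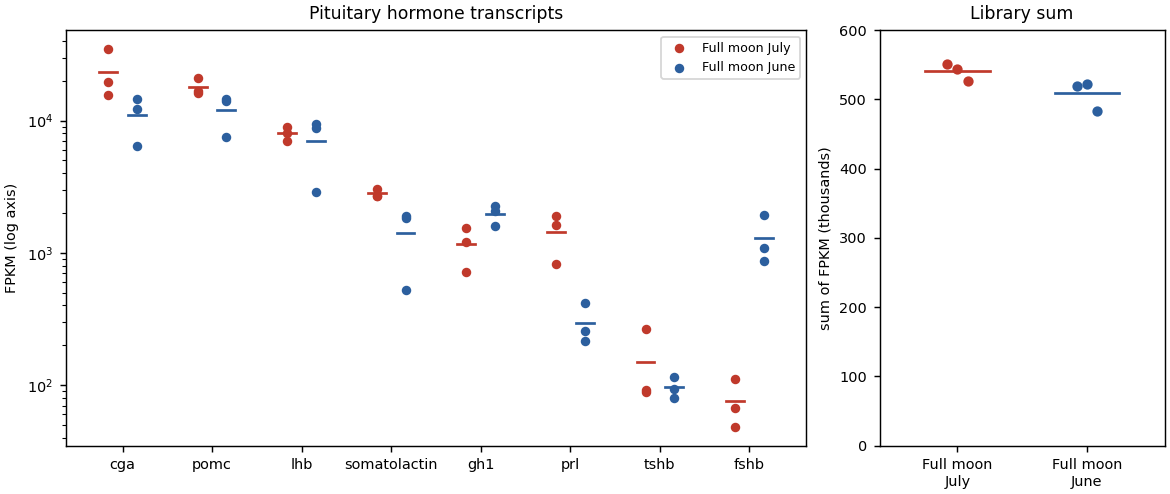
Left, FPKM of 8 pituitary hormone genes on a log axis in the 3 July and 3 June full moon fish, with means as bars; right, the sum of FPKM per library in kFPKM. The fish separate without overlap for prl (817.87 to 1893.41 FPKM in July fish, 216.44 to 415.93 in June fish), fshb, cga, pomc, somatolactin and gh1, none of which passed the test, and the sums separate as well.

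Among 32 tested hypothalamic neuropeptide genes 0 passed, beside 0.897% over all genes, so a list of this size would seldom hold a call. Growth hormone-releasing hormone, ghrh, came closest, with 12.59, 15.04 and 6.74 FPKM in July fish, against 4.46, 4.68 and 3.88 FPKM in June fish (log2 change 1.16, SE 0.29; limma, adjusted p = 0.057). The isotocin gene LOC101073859, the fish counterpart of oxytocin, had 660.51, 12.65 and 722.24 FPKM in July fish, against 3.97, 19.96 and 4.56 FPKM in June fish. For isotocin July fish 2 lay with the June fish, and the log2 change of 4.49 had an SE of 2.18 (limma, adjusted p = 0.308). Neuropeptide Y (LOC101076657) had a log2 change of -0.94 (adjusted p = 0.275) and rln3 one of 0.74 (adjusted p = 0.43) in limma.

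Immediate early genes, which neurons and glia switch on within minutes of stimulation, had a call in each direction but leaned upward. Of 38 tested, 26 had a positive log2 change (46.8% of all tested genes did), and the median was 0.10. In 14 of them all July values lay above all June values (8.41% of all tested genes), and in 4 below (11.4%). Past the threshold, 1 rose and 1 fell (5.26%, beside 0.897% over all genes). The one that rose was dusp2 (LOC101079172), given above. The one that fell was egr3, with 11.49, 11.82 and 11.05 FPKM in July fish, against 15.76, 18.2 and 16.58 FPKM in June fish (log2 change -0.52, SE 0.11; limma, adjusted p = 0.0395). A pair of AP-1 genes lay above June in every July fish without passing. The jun gene LOC101077059 had 19.32, 9.93 and 13.15 FPKM in July fish, against 6.84, 7.63 and 9.28 FPKM in June fish (log2 change 0.73; limma, adjusted p = 0.0533), and the fos-like gene LOC101078177 had 69.89, 24.7 and 29.01 FPKM in July fish, against 17.67, 14.62 and 14.24 FPKM in June fish (1.21; limma, adjusted p = 0.0621).

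Of 25 tested genes of the glucocorticoid and stress axis 1 rose, per1, which is also a clock gene, and 0 fell (4.0%, beside 0.897% over all genes), with a median of 0.33. The C/EBP factor cebpd had 100.28, 57.2 and 56.09 FPKM in July fish, against 44.43, 29.81 and 20.93 FPKM in June fish (log2 change 1.15, SE 0.32; limma, adjusted p = 0.0883). Its relative cebpb (LOC101062898, 1.22, adjusted p = 0.171) and the glucocorticoid-induced gene tsc22d3 (LOC101065532, 0.64, adjusted p = 0.132) did not pass in limma either. Among 12 tested C/EBP and PAR bZIP genes 0 passed, beside 0.897% over all genes, so a list this short would seldom hold a call. Of these genes, hlf (LOC101078916) was at 0.96 (adjusted p = 0.105) and tef (LOC101073097) at 0.57 (adjusted p = 0.18) in limma.

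Of 29 tested genes of inflammation and complement 1 rose and 0 fell (3.45%, beside 0.897% over all genes). A positive change was found in 22, where 46.8% of all tested genes had one, and the median was 0.30. The gene that rose was the gelatinase mmp9, with 4.78, 2.42 and 2.74 FPKM in July fish, against 1.42, 1.29 and 1.13 FPKM in June fish (log2 change 0.88, SE 0.18; limma, adjusted p = 0.0301). July was the highest and June the lowest date for it. The cytokine feedback gene socs3 had a log2 change of 1.07 (adjusted p = 0.0982), the NF-kappa-B inhibitor LOC115248712 one of 0.80 (adjusted p = 0.126) and complement c3 one of -0.38 (adjusted p = 0.109), none past the threshold in limma. The stress and inflammation medians were 0.13 and 0.08 when the library sum was a covariate. Microglial markers, 9 tested with 0 calls, summed to 428 to 504 FPKM in July fish and 346 to 508 FPKM in June fish.

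Genes linked to temperature were read from the heat shock list and from the list of cold-inducible RNA-binding genes that follows. Of 45 tested heat shock and chaperone genes 0 passed, with a median of -0.06. Over all genes 0.897% passed, so a list of this size would hold few calls or none. The constitutive chaperone hspa8 had 772.2, 767.47 and 765.79 FPKM in July fish, against 712.21, 723.45 and 740.21 FPKM in June fish (log2 change 0.08; limma, adjusted p = 0.637). The inducible genes of the 70 kDa family, LOC101067097, LOC101067318, LOC101071708 and LOC101073999, had log2 changes of -0.46, -0.17, -0.16 and -0.11, none past the threshold (limma, adjusted p = 0.666, 0.904, 0.671 and 0.931). The mitochondrial chaperone hspa9 (LOC101077300) had a log2 change of -0.36 (adjusted p = 0.113), and the small heat shock gene hspb8 one of 1.39 (adjusted p = 0.254), in limma. The cold-inducible gene cirbp had 923.33, 858.61 and 920.55 FPKM in July fish, against 808.28, 669.76 and 667.69 FPKM in June fish, higher in each July fish without passing (log2 change 0.34; limma, adjusted p = 0.141).

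Of 49 tested cold-inducible and other splicing-linked RNA-binding genes 1 rose and 1 fell (4.08%, beside 0.897% over all genes), with a median of -0.03. The splicing factor srsf5 had 88.3, 81.93 and 75.92 FPKM in July fish, against 48.49, 57.45 and 57.64 FPKM in June fish (log2 change 0.58, SE 0.13; limma, adjusted p = 0.047). The hnRNP C-like gene LOC101076785 had 21.82, 20.92 and 25.61 FPKM in July fish, against 33.85, 31.14 and 27.8 FPKM in June fish (-0.43, SE 0.09; limma, adjusted p = 0.0396). The splicing activators tra2b (-0.32, adjusted p = 0.0579) and srsf7 (-0.38, adjusted p = 0.07) lay lower without passing in limma.

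Of 23 tested genes of fatty acid desaturation and elongation 0 passed (median 0.09), with the regulator srebf1 at 0.43 (adjusted p = 0.0593) and fatty acid synthase, LOC101069108, at 0.49 (adjusted p = 0.0653) closest in limma. Of 28 tested genes of cholesterol synthesis 0 passed (median 0.08), and the receptor gene ldlr had 17.56, 9.79 and 6.46 FPKM in July fish, against 4.35, 6.99 and 4.7 FPKM in June fish (0.87; limma, adjusted p = 0.117). Fish 3 of July and fish 2 of June overlapped in ldlr. Over all genes 0.897% passed, so lists of these sizes would seldom hold a call.

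Cytosolic ribosomal protein genes showed a shift without a call. Of 79 tested, 78 had a positive log2 change (46.8% of all tested genes did), and 44 lay higher in all 3 July fish than in all 3 June fish (8.41% of all tested genes did). The median was 0.22, beside -0.02 over all genes, and 0 passed, beside 0.897% over all genes. The member of smallest p, rps9, had 850.74, 859.75 and 778.41 FPKM in July fish, against 618.79, 668.19 and 636.3 FPKM in June fish (log2 change 0.37; limma, adjusted p = 0.101). The median was 0.13 with TPM scaling, 0.08 after quantile normalization and 0.01 when the library sum was a covariate. Their own summed level was 64620 to 69178 FPKM in July fish and 51708 to 60396 FPKM in June fish.

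Mitochondrial ribosomal proteins (69 tested, median -0.02), oxidative phosphorylation (90, median 0.01), proteasome subunits (29, median 0.11), ER folding and the unfolded protein response (43, median 0.11), the interferon response (61, median 0.09), the cell cycle (19, median 0.04), steroid synthesis (12, median 0.04), hypoxia and glycolysis (48, median 0.02) and collagens (60, median 0.16) each had 0 calls. With 0.897% called over all genes, lists of these sizes would hold few calls or none. Of 68 tested potassium channel genes 2 rose and 0 fell (2.94%, beside 0.897% over all genes) at a median of -0.11, which was 0.06 when the library sum was a covariate. They were kcne4, given above, and the KCNK5-like gene LOC101066263, with 1.74, 2.83 and 1.57 FPKM in July fish, against 1.04, 1.04 and 0.79 FPKM in June fish (log2 change 0.62, SE 0.14; limma, adjusted p = 0.0471). The hypoxia sensor egln2 (LOC115251385) missed the threshold narrowly, with 9.47, 14.09 and 15.54 FPKM in July fish, against 3.63, 6.29 and 4.6 FPKM in June fish (1.26, SE 0.30; limma, adjusted p = 0.0505).

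**Figure D5:**
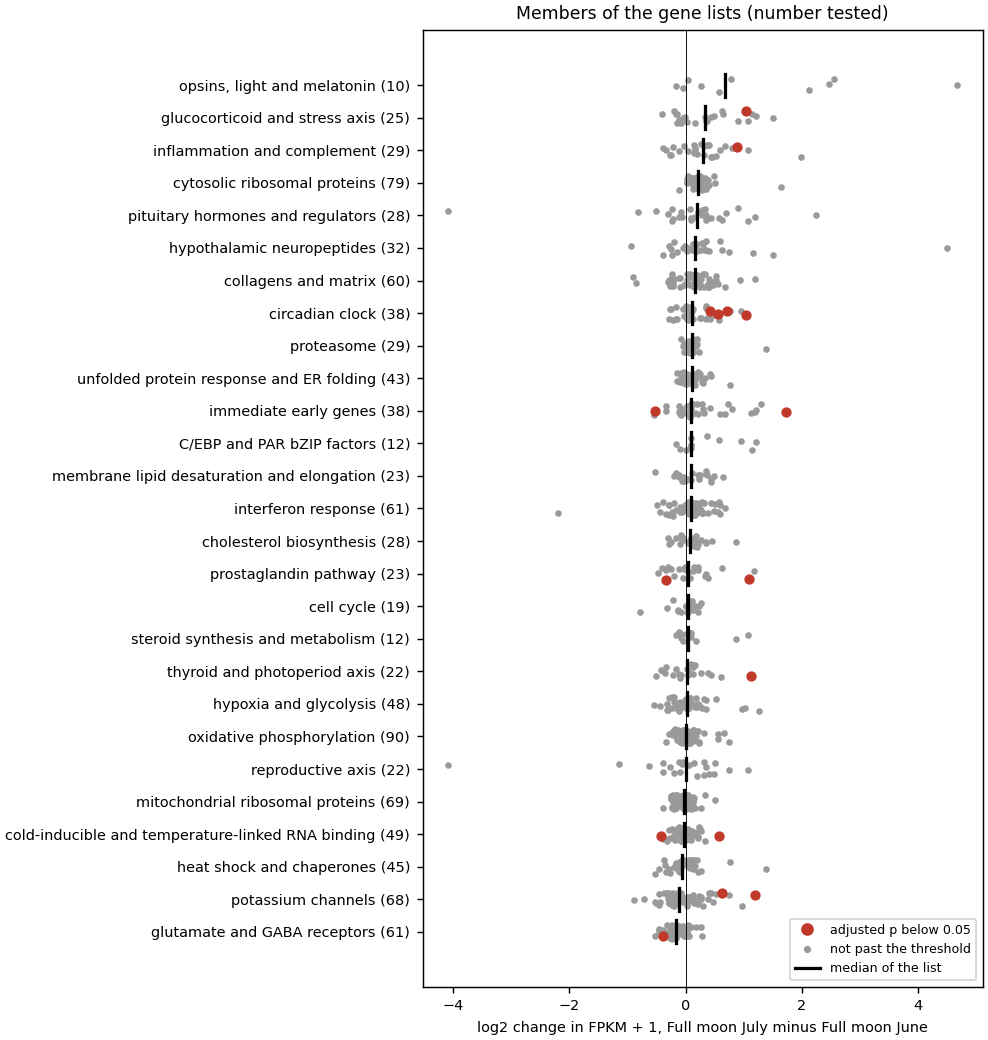
Log2 changes, Full moon July minus Full moon June, of the tested members of 27 gene lists, with the number tested in brackets. Large red points passed the test and black bars are list medians; the 4 called clock genes lie between 0.42 and 1.04, and the ribosomal list sits at a median of 0.22 without a call.

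Among the largest increases, the cone phosphodiesterase gamma-like gene LOC101074909 is named for a photoreceptor protein. It had 15.49, 19.22 and 10.54 FPKM in July fish, against 3.22, 1.58 and 0.58 FPKM in June fish (log2 change 2.6, SE 0.54; limma, adjusted p = 0.0301), and the other dates reached 47.54 FPKM in single fish. Markers of retina and pineal organ, 6 tested with 0 calls, summed to 10.9 to 312 FPKM in July fish and 10.8 to 13.0 FPKM in June fish. Rhodopsin, rho, had 0.06, 72.65 and 238.41 FPKM in July fish, against 0, 0.09 and 0.03 FPKM in June fish, and the melatonin enzyme asmt had 0.08, 8.33 and 24.3 FPKM in July fish, against 0.08, 0.09 and 0.05 FPKM in June fish. July fish 1, in which rho and asmt were as low as in June fish, had 15.49 FPKM of LOC101074909. Markers of other tissues had 0 calls. The tested numbers were 2 for pigment cells, 10 for muscle, 5 for red blood cells and 11 for meninges. They were 15 for vessels, 1 for ependyma and 4 for egg coat. With 0.897% called over all genes, lists this short would seldom hold a call, so absence of change is not shown. The zona pellucida 3-like gene LOC101080196 had 141.73, 101.59 and 477.36 FPKM in July fish, against 246.39, 59.47 and 62.66 FPKM in June fish (log2 change 0.96, limma, adjusted p = 0.718).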

How the data were processed

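Libraries of poly-A RNA were strand-specific, per the labels. The authors' deposited values are FPKM per gene for 24 libraries; HISAT2 2.0.4 and RSEM 1.2.12 are named in the submitters' processing notes, with the genome build not given in the sources used here. Depth is unknown, so no counting interval is given. Values were transformed to log2(FPKM + 1), rows with a mean of at least 1 FPKM were kept, and limma 3.58.1 (R 4.3.3, intensity trend) was fitted to all 24 libraries with the 8 dates as groups (16 residual degrees of freedom). Adjustment was Benjamini-Hochberg over 17058 genes at 0.05. With 3 fish against 3, a permutation test of 1 gene could not go below p = 0.1.

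Named genes are the 12 largest passing changes per direction without overlap that have a product name (an assembler's identifier was not counted as one), 5 per direction for the difference between pairs, up to 4 per list and a fixed set of hormone, clock and heat genes. The comparison, lists and rules were chosen with earlier results of these data known. Alternatives covered pseudocount, filter, scaling, covariates, the replicate block and leaving out fish. On simulated data with 200 changed genes the test recovered 35% of log2 changes of 0.5, 84% of 1 and 96% of 2, with 1, 15 and 4 false calls. These figures hold for those data only. The error rate of the July against June calls was not tested. Lists were matched by symbol or product name and overlap in part.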

Additional observations from a re-analysis of the deposited data

Results flagged for a closer look

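The 25 genes given here are those, among the largest changes and the largest differences between pairs, whose full moon change differed from the mean of the other 3 monthly changes by the test of that difference (limma, adjusted p below 0.05). Other genes named above passed it as well, among them sna1, LOC101069496, the clock genes LOC101076758, LOC101077948 and bhlhe40, gabra2, ncald and rims3. All values are differences on the log2 scale, full moon change minus mean of the other pairs. The difference was 1.81 for LOC101079172 (dusp2), 1.34 for LOC101070411 (SIK2-like), 1.55 for LOC101074895 (nocturnin), 1.05 for LOC101070091 (EP4-like receptor), 1.19 for dio3a and 1.17 for per1. It was 1.70 for phlda2, 1.19 for kcne4, 1.52 for LOC101067025 (MOB2-like) and 1.93 for LOC101072362 (CRABP2-like). The highest values were 3.36 for LOC115248599 (amphiphysin-like), 2.40 for LOC101069999 (histidine triad) and 1.92 for LOC101071953 (maternal B9.15-like).

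Among the decreases the difference was -0.75 for LOC101072929 (SOX-4), -0.91 for LOC101073030 (synapsin-1), -0.76 for LOC101075022 (calcium channel gamma-4-like), -0.89 for camk2n2, -0.84 for pou3f4, -0.74 for ninj1, -1.12 for fam181b and -0.88 for LOC105418169 (trichohyalin-like). It was -3.77 for LOC115246534 (matrix metalloproteinase-20-like), -1.77 for LOC115248182 (claudin-7-A-like), -1.53 for LOC101079432 (LIM homeobox) and -1.45 for LOC101075270 (collagen alpha-5(IV)-like). The waxing moon pair had itself passed in the opposite direction for camk2n2 (0.76), fam181b (0.88), LOC101073030 (0.49), LOC105418169 (0.63), LOC101079432 (1.16) and LOC101075270 (1.24), and among the increases for LOC101072362 (-1.26) and LOC101069999 (-2.35). Among genes outside these the same held for gabra2 (0.19), LOC101076785 (hnRNP C-like, 0.51) and LOC101076758 (nr1d1, -0.63). LOC101076758 also passed in the opposite direction in the waning moon pair (-0.7).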

How the results depend on the processing

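Of 153 genes called in July against June, counts were 23 with only the 6 full moon libraries, 238 with TPM scaling, 27 with the FPKM sum as a covariate, and 230 and 90 with the pituitary score and the score without gonadotropins as covariates, the last 2 chosen after seeing the data. They were 10 to 85 without 1 full moon fish and 218 without Waxing moon May fish 2. Pseudocounts of 0.1 and 5, both filters, median-ratio and quantile scaling and no intensity trend gave 113 to 184. Of the 618 differences between pairs, the count was 406 without a filter, 2266 with TPM scaling, 1 with the FPKM sum as a covariate (added after seeing the data) and 126 to 597 without 1 full moon fish; without Waxing moon May fish 2 there were 765. The pituitary score difference was 0.74 without the 3 gonadotropin genes, against 0.13 with them. Fish of the same replicate number did not deviate together (r = -0.119, -0.0122 and -0.0406), so the numbers do not pair them; with a replicate block 127 and 540 genes passed. All 153 called genes kept their direction in every alternative in which they were tested. Only the fits with another scaling or with a covariate could have reversed a direction. In all the others it was fixed beforehand, as the July and June values did not overlap, so it adds no support to the calls. Among named genes that did not pass, cga, lhb, pomc, somatolactin, tshb, gnrh1, hspa8, bhlhe41 and LOC101080196 changed sign in at least 1 alternative. The cause of the changes in count was not tested. Depth limits cannot be given for FPKM.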
